A study of Mus musculus with 12 samples.

Results

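Mitochondria make only a few of their own proteins, and the rest are built in the cytosol and imported. The 36 genes described here encode that import machinery, the proteins that fold the inner membrane into cristae, the proteins that fuse and divide mitochondria, and the chaperonin that folds imported proteins. They are a list of gene names, drawn up with earlier results of these data known, and all 36 are among the 23420 gene symbols of the count table. All 36 passed the filter on low counts, which left 14898 tested genes, and the smallest count of any of them in any library was 73 reads. The measurements are RNA sequencing read counts from 4 fat depots of untreated male C57BL/6 mice aged 8 weeks, kept at ambient temperature. The brown depots were interscapular (iBAT) and supraclavicular (scBAT), and the white depots were inguinal (iWAT) and epididymal (eWAT), with 3 libraries each. All groups share that strain, sex, age and housing, and no group carries a transgene or an agent. The labels do not say whether the 3 libraries of a depot are separate animals or pools, so p-values measure the spread between these samples.

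As background, proteins bound for mitochondria pass the outer membrane through the TOM complex. They are then sorted to the outer membrane by the SAM complex, to the inner membrane by TIM22, or to the matrix by TIM23, and small TIM chaperones carry hydrophobic ones across the space between. The MICOS complex holds cristae in shape. Mfn1, Mfn2 and Opa1 fuse mitochondria, and Dnm1l, recruited by Mff and Fis1, divides them. Brown fat is known for many mitochondria with densely packed cristae, which carry the respiratory chain and the uncoupling protein used for heat.

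Levels are given as CPM, counts scaled to library size with TMM factors. Every difference is on the log2 scale and comes from edgeR with its standard error (SE), and a gene is called where the Benjamini-Hochberg adjusted p is under 0.05. Total counts ran from 17159401 to 29262554 per library. Brown adipocyte markers (9 genes) summed to 4350 to 5690 CPM in brown libraries and 95.7 to 433 CPM in white ones, and white adipocyte markers (6 genes) to 290 to 714 and 1190 to 5100 CPM. Among other tissues, 16 skeletal muscle markers summed to 435 to 6370 CPM in brown libraries against 69.2 to 245 CPM in white ones. Salivary gland markers (9 genes, Smr2 without a count) summed to 6800, 11500 and 2440 CPM in scBAT 1 to 3 and 172 to 2440 CPM elsewhere. B cell markers (10 genes) summed to 1780 and 2450 CPM in iWAT 1 and 3, 102 CPM in iWAT 2 and at most 49.3 CPM in any other library. T cell markers (10 genes) gave 1070, 71.3 and 1690 CPM in iWAT 1 to 3 and at most 21.1 CPM in the other depots. Counts were scaled within each library, to its total over tested genes times its TMM factor. The factors ran from 0.872 to 0.922 in brown libraries and from 1.05 to 1.19 in white ones. Brown levels are therefore higher against white ones than with plain totals, which were not tried. In a whole tissue fewer cells of a type and less RNA per cell cannot be told apart.

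Import, cristae and dynamics genes were higher in brown than in white fat with few exceptions. Of the 36 genes, 33 were called higher in the mean of both brown depots, where 31.3% of all tested genes were, and 2 were called lower (38.1% of all tested genes). The genes called lower were Tomm34 and Oma1, and Fis1 was not called. The median log2 difference of the 36 was 1.30, with a range from -0.90 to 2.19, and the median of all tested genes was -0.11. In 23 of the 36 the increase was at least 2-fold and called, as it was in 13.3% of all tested genes. For 32 of the 36, every brown library lay above every white one (23.3% of all tested genes), and for 1, Tomm34, every brown library lay below (21.9%). Chchd6, Fis1 and Oma1 had overlapping libraries.

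**Figure D1:**
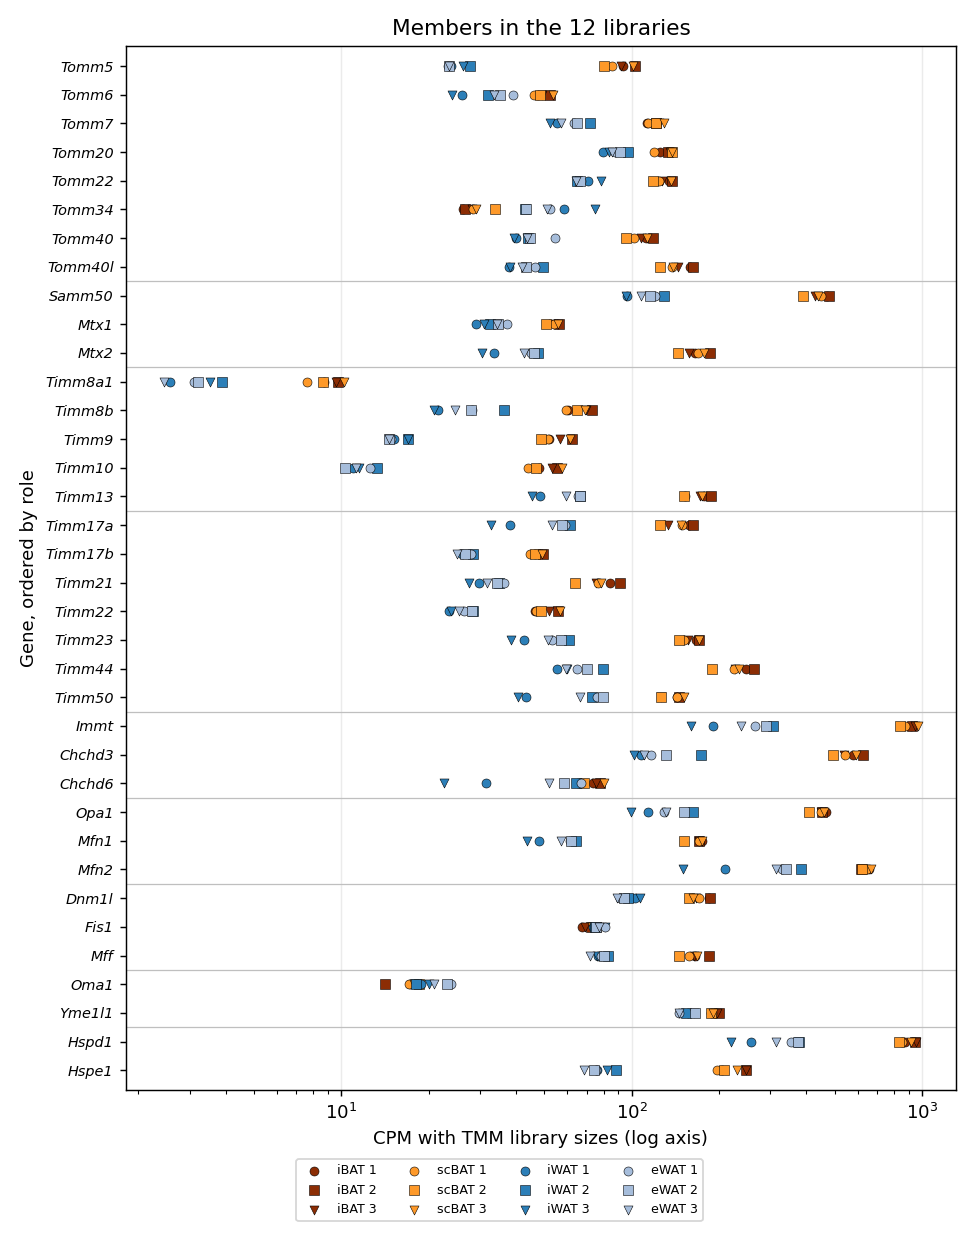
CPM of each of the 36 genes (rows, grouped by role with grey lines) in the 12 libraries on a log axis; colour marks the depot and the symbol the library number. Brown and white libraries are separate for 33 genes and overlap for Chchd6, Fis1 and Oma1.

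Summed over the 36 genes, brown libraries held 6610 to 7610 CPM and white libraries 2250 to 3190 CPM. The skeletal muscle markers were also higher in the brown libraries, and their part in these differences was not tested. Among the brown libraries, scBAT 1 had the highest muscle sum (6370 CPM) and 6980 CPM of the 36 genes, while iBAT 1 had the lowest muscle sum (435 CPM) and 7310 CPM of the 36 genes. In another fit the most muscle-marked library of each brown depot was left out (iBAT 3 and scBAT 1). There 32 genes were called higher (28.0% of all tested genes) and 2 lower (32.9%), with a median of 1.34. With iWAT 1 and 3 left out, which leaves a lone iWAT library, the median was 1.22.

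Of 8 genes listed with the TOM complex, the entry gate of the outer membrane, 7 were higher in brown fat. The gene that was lower, Tomm34, encodes no subunit of the gate. Tomm5, a small subunit of the gate, stood at 93.7, 103 and 92.2 CPM in iBAT and 85.7, 80.6 and 101 CPM in scBAT. White fat held less, with 23.9, 27.8 and 26.3 CPM in iWAT against 23.3, 23.5 and 23.5 in eWAT. All 6 brown libraries were above all 6 white ones, and the log2 difference was 1.91 (SE 0.07, adjusted p = 2.65e-08). Tomm40l, a close relative of the pore gene, had 159, 163 and 144 CPM in iBAT, 138, 125 and 139 CPM in scBAT, 37.8, 49.3 and 38.0 CPM in iWAT and 46.4, 43.4 and 42.0 CPM in eWAT. Its difference was 1.75 (SE 0.08, adjusted p = 5.75e-08), again with no overlap. Tomm40, the pore itself, had 112, 118 and 108 CPM in iBAT, 102, 95.7 and 113 in scBAT, 40.0, 43.8 and 39.3 in iWAT and 54.4, 44.8 and 43.7 in eWAT. It rose by 1.29 without overlap (SE 0.08, adjusted p = 2.1e-07), from 41.0 ± 2.42 CPM in iWAT and 47.6 ± 5.87 in eWAT to 113 ± 4.84 in iBAT and 104 ± 9.07 in scBAT (SD, n = 3).

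The remaining genes of the gate had increases under 1 on the log2 scale. Tomm20 and Tomm22, which receive proteins at the surface, rose by 0.58 and 0.92. Tomm7 rose by 0.98 and Tomm6 by 0.66, both small subunits of the gate. In brown libraries Tomm6 had 46.1 to 53.5 CPM and in white ones 24.0 to 39.0, Tomm7 113 to 129 against 52.5 to 72.1, and Tomm22 118 to 138 against 64.2 to 78.2. For Tomm20 the brown range was 119 to 138 CPM and the white range 79.6 to 97.5.

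Tomm34 went the other way. It encodes a cytosolic cochaperone that binds proteins on their way to mitochondria (chromosome 2, 164053540 to 164071169, minus strand). Its level was 26.3, 26.7 and 28.2 CPM in iBAT and 28.4, 33.8 and 29.2 CPM in scBAT. The iWAT libraries held 58.5, 42.9 and 74.8 CPM, those of eWAT 52.2, 43.1 and 50.9. All brown libraries were below all white ones, with a difference of -0.90 (SE 0.12, adjusted p = 8.94e-05). The iWAT libraries with the most B cell markers, 1 and 3, had the highest Tomm34. Without them the gene remained lower, by -0.66 (adjusted p = 3.17e-05). Tomm34 overlaps Stk4 on the opposite strand, which had a mean of 204 CPM in iWAT and 49.7 to 56.5 CPM in the other depots. The strand setting of the counting is not given in the sources used here, so reads of the overlap cannot be assigned.

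The SAM complex, which inserts barrel-shaped proteins into the outer membrane, had all 3 genes higher. Samm50, its core (chromosome 15, 84192241 to 84217267), stood at 469, 478 and 428 CPM in iBAT, 447, 390 and 439 in scBAT, 96.3, 129 and 95.9 in iWAT and 120, 116 and 108 in eWAT. That is a 3.98-fold difference without overlap (log2 difference 1.99, SE 0.10, adjusted p = 7.34e-08). Mtx2, a partner of Samm50, had 165, 186 and 158 CPM in iBAT, 169, 144 and 177 in scBAT, 33.5, 47.5 and 30.5 in iWAT and 45.1, 46.1 and 42.6 in eWAT. It too was separate in all libraries, with the largest difference of the complex (2.03, SE 0.11, adjusted p = 1.68e-07). Mtx1, the other metaxin, rose by 0.71 (SE 0.06, adjusted p = 1.87e-06), from 29.2, 32.4 and 31.1 CPM in iWAT and 37.3, 34.7 and 34.4 in eWAT to 55.7, 56.2 and 53.4 in iBAT and 53.8, 50.8 and 55.9 in scBAT. Mtx1 overlaps Thbs3 on the opposite strand, at a mean of 5.27 CPM in iBAT and 39.6 in eWAT.

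All 5 small TIM chaperones were higher in brown fat, with log2 differences from 1.32 (Timm8b) to 2.12 (Timm10). Timm10 and Timm9, which form a ring together, both rose. Timm10 (chromosome 2, 84826997 to 84830213) stood at 48.1, 55.3 and 53.0 CPM in iBAT, 44.1, 46.8 and 57.6 in scBAT, 11.0, 13.3 and 11.5 in iWAT and 12.6, 10.3 and 11.2 in eWAT. Its difference was 2.12 without overlap (SE 0.10, adjusted p = 4.74e-08). For Timm9 the values were 51.9, 62.4 and 56.5 CPM in iBAT, 51.3, 48.7 and 61.2 in scBAT, 15.2, 17 and 17 in iWAT and 14.8, 14.6 and 14.6 in eWAT. These were again separate, with a difference of 1.83 (SE 0.08, adjusted p = 4.27e-08). Timm8a1, whose human counterpart is mutated in a deafness and dystonia syndrome, had the lowest level of the 36 per length, with 8.74, 9.75 and 9.56 CPM in iBAT, 7.64, 8.68 and 10.2 in scBAT, 2.57, 3.87 and 3.52 in iWAT and 3.12, 3.21 and 2.45 in eWAT. Its difference was 1.54 (SE 0.15, adjusted p = 4.91e-06). Timm13 rose by 1.53, with 151 to 188 CPM in brown against 45.5 to 66.5 in white libraries, and Timm8b had 59.3 to 73.1 against 20.8 to 36.2.

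The inner membrane translocases had all 7 genes higher, by 0.82 to 1.83. Timm44, which ties the import motor to the channel, had 248, 263 and 227 CPM in iBAT, 225, 189 and 235 in scBAT, 55.2, 79.6 and 60.1 in iWAT and 64.8, 69.9 and 59.4 in eWAT (log2 difference 1.83, SE 0.11, adjusted p = 1.93e-07). Timm23, the channel of the matrix route, had 167, 171 and 156 CPM in iBAT, 151, 145 and 170 in scBAT, 42.5, 60.6 and 38.5 in iWAT and 53.0, 57.3 and 51.6 in eWAT (1.66, SE 0.11, adjusted p = 4.1e-07). The brown libraries of both genes were all above the white ones. Timm17a, a channel partner of Timm23, had 158, 162 and 133 CPM in iBAT, 149, 125 and 148 in scBAT, 38.1, 61.2 and 32.7 in iWAT and 58.9, 57.5 and 53.0 in eWAT (1.55, SE 0.14, adjusted p = 4.43e-06). Its relative Timm17b had 46.3, 49.3 and 47.7 CPM in iBAT, 44.7, 46.6 and 49.1 in scBAT, 26.1, 28.4 and 26.2 in iWAT and 28.0, 26.7 and 25.0 in eWAT (0.82, SE 0.06, adjusted p = 8.96e-07). Both rose without overlap, and the white values of Timm17a were the more spread, lowest in iWAT 1 and 3. Timm50, a receptor of the same route, had 143, 145 and 126 CPM in iBAT, 143, 126 and 151 in scBAT, 43.4, 73.2 and 40.5 in iWAT and 76.2, 79.4 and 66.5 in eWAT (1.16, SE 0.14, adjusted p = 3.31e-05). Timm21, which links TIM23 to the outer membrane, rose by 1.27 and Timm22, the channel for carrier proteins, by 0.98.

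The start region of Timm23 is shown because it holds 2 of the motifs searched in the promoters of these genes. The window is chr14:32201842-32202141 of GRCm38, minus strand, from RefSeq, and runs from 250 bases before to 50 bases after the annotated start. Capitals mark ACTTCCGG, the reverse complement of the GABPA motif CCGGAAGT, and AAGGTCA, the core motif of the estrogen-related receptors (ERR).
Timm23: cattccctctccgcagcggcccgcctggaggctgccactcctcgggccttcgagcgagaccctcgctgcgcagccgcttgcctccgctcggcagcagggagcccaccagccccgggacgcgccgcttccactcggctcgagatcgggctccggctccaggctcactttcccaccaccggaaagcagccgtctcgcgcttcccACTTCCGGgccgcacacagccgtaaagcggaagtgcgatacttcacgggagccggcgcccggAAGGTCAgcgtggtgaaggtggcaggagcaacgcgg

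MICOS genes held both the largest and one of the smallest increases. Chchd3, a subunit of the complex at the crista neck (chromosome 6, 32790976 to 33060260), had 579, 628 and 537 CPM in iBAT, 542, 493 and 591 in scBAT, 108, 173 and 102 in iWAT and 117, 131 and 110 in eWAT. No libraries overlapped, and its 2.19 was the largest difference of the 36 genes (SE 0.14, adjusted p = 3.8e-07, 4.55-fold). Immt, the scaffold of the complex, had 919, 920 and 949 CPM in iBAT, 876, 838 and 967 in scBAT, 191, 307 and 160 in iWAT and 266, 289 and 238 in eWAT (1.92, SE 0.15, adjusted p = 1.63e-06).

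Chchd6, which belongs to the same complex and resembles Chchd3, had 73.3, 77.6 and 75.3 CPM in iBAT, 65.2, 68.5 and 80.1 in scBAT, 31.6, 64.1 and 22.6 in iWAT and 67.0, 58.4 and 52.1 in eWAT. Libraries iWAT 1 and 3 were low, while iWAT 2 and eWAT 1 came close to or into the brown range. The difference of 0.60 (SE 0.21, adjusted p = 0.0254) was 0.26 without iWAT 1 and 3 (adjusted p = 0.0221), and the call was lost in 7 of 20 alternatives (adjusted p from 0.0504 to 0.0608): with upper quartile scaling, without the muscle-marked libraries, and without iBAT 2, scBAT 3, iWAT 1, eWAT 2 or eWAT 3. Against eWAT alone, Chchd6 was not called: iBAT minus eWAT was 0.35 (adjusted p = 0.345) and scBAT minus eWAT 0.27 (adjusted p = 0.476).

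All 3 fusion genes were higher. Opa1, which fuses inner membranes and narrows crista junctions, had 468, 451 and 449 CPM in iBAT, 448, 409 and 460 in scBAT, 114, 163 and 99.7 in iWAT and 129, 151 and 131 in eWAT (log2 difference 1.77, SE 0.12, adjusted p = 5.34e-07). Of the mitofusins, which join outer membranes, Mfn1 had 175, 170 and 170 CPM in iBAT, 170, 152 and 175 in scBAT, 47.9, 64.4 and 43.6 in iWAT and 61.5, 62.0 and 57.3 in eWAT (1.59, SE 0.10, adjusted p = 2.27e-07). Mfn2 had 659, 614 and 622 CPM in iBAT, 644, 620 and 666 in scBAT, 209, 383 and 150 in iWAT and 330, 341 and 314 in eWAT (1.16, SE 0.19, adjusted p = 0.000291). For each of the 3 genes all brown libraries lay above all white ones, and iWAT 1 and 3 were the lowest white libraries.

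Opa1 is shown because, of the 33 genes with a promoter window, it was the only gene to hold the full motif of NRF1, the core GCATGCGC with GC before it (3.03%, against 1.07% of all genes). NRF1 is a transcription factor of nuclear genes for mitochondrial proteins. The window is chr16:29579084-29579383, plus strand, and capitals mark the full motif, which contains the core on both strands.
Opa1: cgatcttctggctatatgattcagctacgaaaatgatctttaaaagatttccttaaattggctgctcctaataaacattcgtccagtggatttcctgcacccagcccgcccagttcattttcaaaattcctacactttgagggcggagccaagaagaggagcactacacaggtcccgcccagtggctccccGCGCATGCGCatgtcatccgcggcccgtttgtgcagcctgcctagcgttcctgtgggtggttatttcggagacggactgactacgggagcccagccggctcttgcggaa

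Fission genes split. Mff, the adaptor that recruits Dnm1l, had 165, 184 and 164 CPM in iBAT, 157, 146 and 168 in scBAT, 76.4, 83.1 and 75.7 in iWAT and 78.1, 80.5 and 72.1 in eWAT (log2 difference 1.08, SE 0.06, adjusted p = 2.22e-07). Dnm1l, the dynamin-like protein that constricts mitochondria, had 184, 186 and 167 CPM in iBAT, 171, 158 and 163 in scBAT, 103, 97.5 and 107 in iWAT and 91.1, 94.4 and 89.2 in eWAT (0.82, SE 0.06, adjusted p = 6e-07). Neither gene had overlapping libraries. Fis1, another outer membrane adaptor (chromosome 5, 136953275 to 136966234), was nearly level, at 67.4, 72.6 and 68.9 CPM in iBAT, 74.2, 75.4 and 73.2 in scBAT, with 73.7, 74.5 and 81.2 in iWAT, then 81.0, 75.2 and 77.0 in eWAT. Brown and white libraries overlapped, and the difference of -0.10 (SE 0.05, adjusted p = 0.114) was called only with upper quartile scaling (-0.17, adjusted p = 0.0144), among 20 alternatives.

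Fis1 is shown beside the genes that rose because its window held a motif that 4 of those also held. It has 2 annotated starts, each with a GABPA motif. The first, chr5:136953025-136953324 on the plus strand, reads as follows with the motif in capitals.
Fis1: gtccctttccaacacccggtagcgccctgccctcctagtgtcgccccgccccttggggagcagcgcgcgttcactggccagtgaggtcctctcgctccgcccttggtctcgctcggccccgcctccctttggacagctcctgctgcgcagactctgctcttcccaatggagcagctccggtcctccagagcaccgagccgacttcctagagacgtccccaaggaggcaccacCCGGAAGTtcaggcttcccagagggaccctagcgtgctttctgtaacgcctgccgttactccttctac

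The inner membrane proteases that cut Opa1 were called in opposite directions with TMM scaling. Both differences were small, and scaling to plain totals, which was not tried, would lower brown levels against white ones. Yme1l1, which cuts Opa1 under normal conditions, had 187, 200 and 197 CPM in iBAT, 189, 188 and 190 in scBAT, 156, 154 and 164 in iWAT and 145, 165 and 146 in eWAT, with no overlap (log2 difference 0.31, SE 0.06, adjusted p = 0.000893). Oma1, which cuts it under stress (chromosome 4, 103313812 to 103371868), had 17.2, 14.1 and 17.8 CPM in iBAT, 17.1, 18.5 and 17.8 in scBAT, with 18.8, 18.1 and 20.1 in iWAT, then 23.8, 23.2 and 20.9 in eWAT. The highest brown library was above the lowest white one, and the difference was -0.28 (SE 0.08, adjusted p = 0.0107). Over the alternatives the difference of Yme1l1 ran from 0.24 to 0.35 and that of Oma1 from -0.35 to -0.23. By depot, the fall of Oma1 was called against eWAT (iBAT -0.47, adjusted p = 0.0062, and scBAT -0.35, adjusted p = 0.029) and not against iWAT. The scBAT call was lost when any scBAT library, eWAT 1 or eWAT 2 was left out (adjusted p from 0.0524 to 0.0952) and without the muscle-marked libraries (-0.31, adjusted p = 0.104).

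The matrix chaperonin genes rose by nearly the same amount. Hspd1, which encodes HSP60, had 874, 942 and 953 CPM in iBAT, 850, 831 and 915 in scBAT, 258, 376 and 220 in iWAT and 355, 374 and 315 in eWAT (log2 difference 1.51, SE 0.13, adjusted p = 3.14e-06). Its lid Hspe1, which encodes HSP10, had 205, 248 and 247 CPM in iBAT, 196, 208 and 231 in scBAT, 76.1, 88.0 and 82.1 in iWAT and 75.4, 74.4 and 68.5 in eWAT (1.52, SE 0.08, adjusted p = 8.71e-08). In both, all brown libraries were above all white ones. The genes lie head to head on chromosome 1 (Hspd1 55077835 to 55088243 on the minus strand, Hspe1 55088132 to 55091307 on the plus strand), and their annotated spans overlap at the start.

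The stretch before Hspe1 is shown because RefSeq windows of both genes cover it. In the Hspe1 window, chr1:55087898-55088197 on the plus strand, capitals mark GAACCTTC, a match to the heat shock element GAANNTTC, and then AAGGTCA, the ERR core. Hspd1 has 2 annotated starts. The window of the inner start, chr1:55087883-55088182 on the minus strand, covers nearly the same stretch and holds both matches, while that of the outer start, chr1:55088194-55088493, holds none of the motifs searched.
Hspe1: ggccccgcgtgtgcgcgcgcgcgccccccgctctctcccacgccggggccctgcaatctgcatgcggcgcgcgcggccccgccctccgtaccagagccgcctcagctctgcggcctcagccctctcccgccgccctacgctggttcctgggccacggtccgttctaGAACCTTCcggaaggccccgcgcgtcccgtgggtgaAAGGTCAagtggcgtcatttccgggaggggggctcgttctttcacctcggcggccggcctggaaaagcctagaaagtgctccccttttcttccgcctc

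RefSeq promoter windows were matched for 33 of the 36 genes, without Tomm7, Tomm40l and Timm21, and each motif was searched on both strands. The ERR core AAGGTCA was found in 6 genes (18.2%): Timm8b, Timm23, Timm44, Chchd6, Hspd1 and Hspe1, the last pair through the stretch that the Hspe1 window shares with the inner Hspd1 start. Of all 27025 genes with windows, 5.38% held it. The GABPA motif CCGGAAGT was found in Mtx2, Timm10, Timm23, Mfn1 and Fis1 (15.2%, against 4.31% of all genes). The NRF1 core GCATGCGC was found in Timm13 and Opa1 (6.06% against 3.05%), and the YY1 motif AAGATGGC in Mtx1 and Timm50 (6.06% against 3.19%). The heat shock element was found in Timm9, Hspd1 and Hspe1 (9.09% against 9.04%). These are letter matches, and they describe the windows without showing binding.

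**Figure D2:**
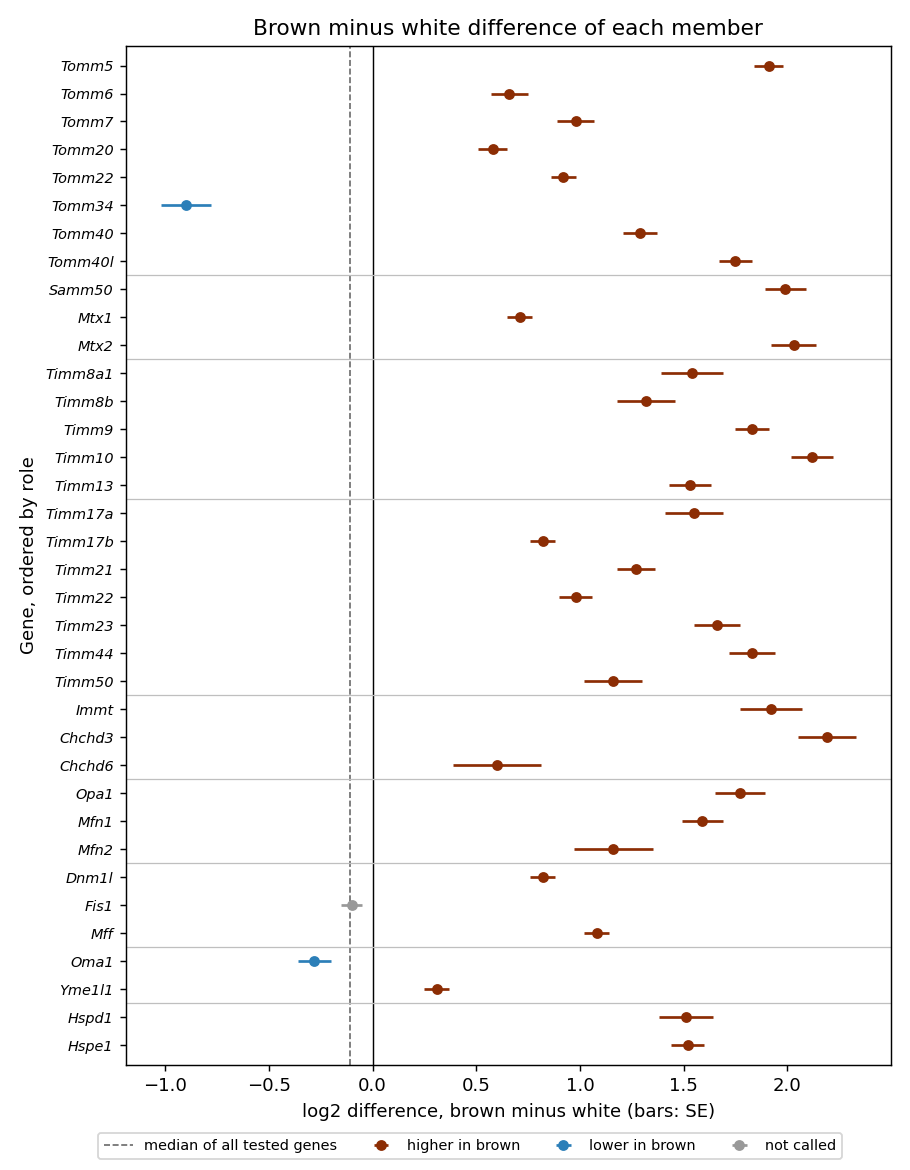
Log2 difference, brown minus white, of each gene with its SE (x axis) in order of role (y axis); the dashed line is the median of all tested genes, at -0.11. Differences run from -0.90 for Tomm34 to 2.19 for Chchd3, and Fis1 was not called.

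Per length of the principal transcript, the chaperonin genes and the MICOS genes Chchd3 and Immt stood highest in brown fat. In CPM per kilobase, the brown means were 369 for Hspd1, 362 for Chchd3, 334 for Immt and 287 for Hspe1. Mfn2 followed at 147 and Tomm5 at 145, while Timm8a1, at 6.40, and Oma1, at 8.91, were lowest. The MICOS gene Chchd6 stood at 65.4. By the white means, Fis1, at 98.1, was above Immt at 88.6 and Chchd3 at 79.6. These levels rest on GENCODE transcript lengths, and the transcripts used in the tissue may be of other lengths.

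Ratios between paired genes asked whether partners moved together. Each ratio is the log2 of CPM over CPM within a library, uncorrected for length, so only its change between depots is read. For each of 6 ratios, 6 brown libraries were set against 6 white ones in a two-sided exact permutation test, with adjustment over the 6 ratios; the smallest p this design can give is 0.00216. The test pools the depots of a side, and with 3 libraries against 3 it could not go below 0.10.

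Chchd3 over Chchd6 changed most, at 2.93 ± 0.09 (SD, n = 6) in brown and 1.40 ± 0.50 in white libraries, a difference of 1.53 (exact permutation adjusted p = 0.00325). Every brown library lay above every white one. Timm17a over Timm17b was 1.62 ± 0.14 in brown and 0.87 ± 0.35 in white libraries, a difference of 0.75 (exact permutation adjusted p = 0.00325). Here iWAT 1 and 3 were lowest, at 0.54 and 0.32, against 1.11 in iWAT 2 and 1.07 to 1.10 in eWAT.

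Tomm40 over Tomm40l fell by 0.47, from 0.05 ± 0.13 in white to -0.42 ± 0.08 in brown libraries (exact permutation adjusted p = 0.00325). Oma1 over Yme1l1 fell by 0.59, from -2.90 ± 0.18 to -3.49 ± 0.17 (exact permutation adjusted p = 0.00325). Both had no overlap between brown and white libraries. Mfn1 over Mfn2 was 0.38 higher in brown fat (exact permutation adjusted p = 0.026), but iWAT 3, at -1.78, was above the highest brown library, at -1.85. The call was lost without the most muscle-marked library of each brown depot (adjusted p = 0.0686).

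Hspd1 over Hspe1 stood at 2.01 ± 0.08 in brown and 2.01 ± 0.35 in white libraries (exact permutation adjusted p = 0.978). The white depots differed from each other around that mean, at 1.76 ± 0.34 in iWAT and 2.26 ± 0.07 in eWAT (SD, n = 3). Without iWAT 1 and 3 the ratio was 0.20 lower in brown than in white libraries (difference -0.20, exact permutation adjusted p = 0.0143).

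**Figure D3:**
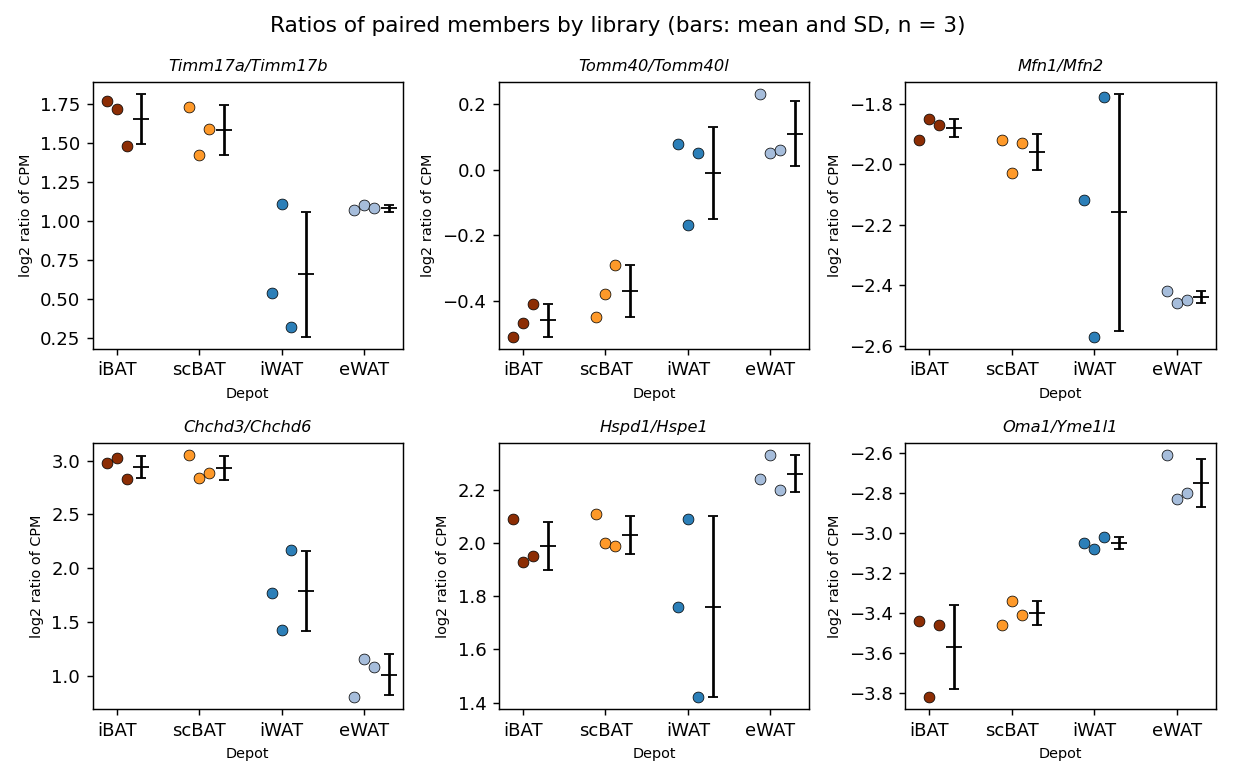
Log2 ratio of CPM of 6 pairs of genes (panels) in each library, by depot, with mean and SD (n = 3) as bars; the y axes differ and do not start at 0. Chchd3 over Chchd6 is above 2.8 in all brown libraries, and the SD in iWAT runs from 0.03 for Oma1 over Yme1l1 to 0.40 for Timm17a over Timm17b.

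Between the brown depots, none of the 36 genes was called, where 0.329% of all tested genes were. By edgeR 0 also had an unadjusted p under 0.05, against 855 of all 14898 tested genes. DESeq2 and limma-voom called 0 of the 36 too. Among all tested genes DESeq2 called 181 higher and 29 lower in scBAT, and limma-voom 21 higher and 8 lower. Log2 differences of scBAT minus iBAT ran from -0.21 for Tomm40l (SE 0.11) to 0.17 for Tomm34 (SE 0.18), with 29 below 0 and 7 above. Between the libraries of a brown depot, the median coefficient of variation of the 36 genes was 5.25% in iBAT and 7.86% in scBAT. Over all tested genes, which include genes with fewer reads, it was 9.75% in iBAT and 10.0% in scBAT.

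Each brown depot also differed from each white depot in nearly all of the genes. Against iWAT, 33 of 36 were called higher in iBAT and 33 in scBAT, where 27.9% and 28.1% of all tested genes were, and 1 was called lower in each (35.2% and 33.5%). Against eWAT, 32 were called higher in iBAT and 32 in scBAT, where 26.2% and 26.0% were, and 2 were called lower in each (27.5% and 25.8%). Tomm34 was lower in all 4 of these comparisons, by -0.68 to -1.12, and Oma1 in both against eWAT. For Tomm34 the call between scBAT and eWAT was lost without the muscle-marked libraries (-0.62, adjusted p = 0.0515). The comparisons share libraries, and 32 genes were called higher in all 4. The share of all tested genes higher in all 4 was not counted, but it cannot exceed the 26.0% of scBAT against eWAT.

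Between the white depots, 1 gene was called and the iWAT libraries disagreed. Tomm6 was lower in iWAT, at 26.0, 32.1 and 24.0 CPM against 39.0, 35.2 and 33.5 in eWAT (iWAT minus eWAT -0.39, SE 0.12, adjusted p = 0.0367). That is 1 of 36 lower where 11.0% of all tested genes were, and 0 of 36 higher where 17.7% were. The edgeR test gave 3 of the 36 an unadjusted p under 0.05, and 6828 of all 14898 tested genes. DESeq2 called 3 of the 36 lower, and 16.7% of all tested genes. The call of Tomm6 was lost in 13 of 21 alternatives, among them leaving out any iBAT or eWAT library, scBAT 2, iWAT 1 or iWAT 3 (adjusted p from 0.0505 to 0.125), and it stood at -0.14 without both iWAT 1 and 3 (adjusted p = 0.609). The genes with the next smallest adjusted p were Timm50 (-0.50, SE 0.20, adjusted p = 0.075), Mtx1 (-0.20, SE 0.08, adjusted p = 0.0896), Oma1 (-0.25, SE 0.12, adjusted p = 0.116), Tomm40 (-0.22, SE 0.11, adjusted p = 0.134) and Dnm1l (0.16, SE 0.08, adjusted p = 0.137).

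Within iWAT, library 2 was the highest of the 3 for 30 of the 36 genes (46.6% of all tested genes). Relative to the eWAT mean, the median of the 36 was -0.22 in iWAT 1, 0.11 in iWAT 2 and -0.22 in iWAT 3 on the log2 scale, with medians of all tested genes from -0.04 to -0.01. The genes furthest below the eWAT mean were Chchd6 (-0.90 in iWAT 1 and -1.39 in iWAT 3), Mfn2 (-0.65 and -1.13) and Timm50 (-0.77 and -0.87). In iWAT 2 these genes stood at 0.11, 0.22 and -0.02. Tomm34 was the highest above that mean, at 0.26 in iWAT 1 and 0.62 in iWAT 3, and -0.18 in iWAT 2.

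The lymphocyte markers were high in the same libraries, iWAT 1 and 3, and 8 pan-adipocyte markers were low there, with sums of 11200 and 7200 CPM against 18700 in iWAT 2 and 17300 to 19800 in eWAT. Without iWAT 2, 17 of the 36 genes were called lower in iWAT (32.5% of all tested genes) and 2 higher (34.7%), Dnm1l and Tomm34. Those lower included Chchd6 (-1.12, adjusted p = 9.53e-05), Mfn2 (-0.87, adjusted p = 0.00016), Timm50 (-0.82, adjusted p = 6.86e-05) and Timm17a (-0.67, adjusted p = 0.000445). With iWAT 1 and 3 left out instead, 0 were lower (2.68% of all tested genes) and 1 was higher (3.12%), Chchd3 (0.56, adjusted p = 0.027), so both counts are near the share of all genes. In that fit iWAT is represented by a lone library that is assumed to vary like the other depots.

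**Figure D4:**
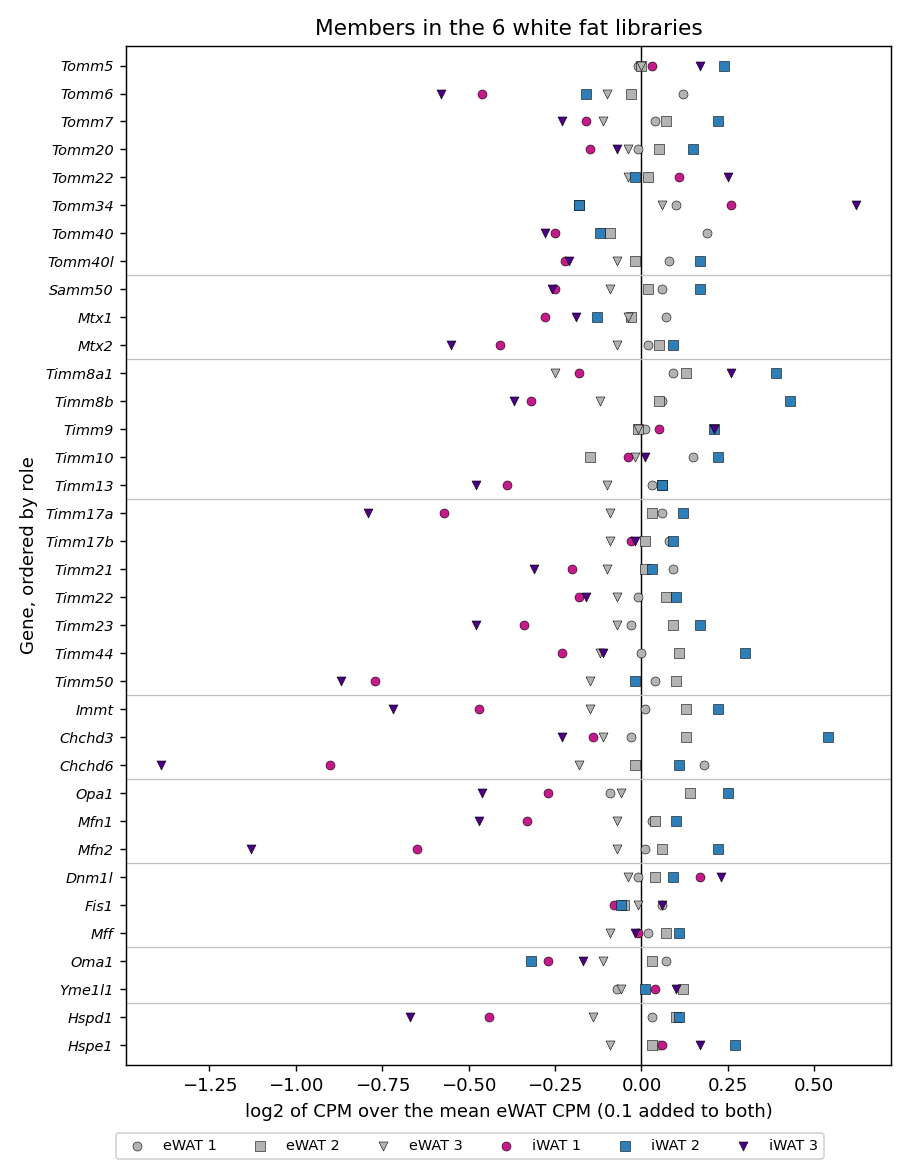
Log2 of the CPM of each gene over its mean in eWAT (x axis) in the 6 white libraries, in order of role (y axis), with 0.1 CPM added to both values. Library iWAT 2 lies near or above the eWAT libraries for most genes, while iWAT 1 and 3 fall as low as -1.39 for Chchd6.

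Most other genes of the same pathways were higher as well. Of 77 listed genes, 74 are in the table and 72 were tested, of which 66 were called higher and 3 lower in brown fat, with a median log2 difference of 1.29. Of all tested genes, 31.3% were called higher and 38.1% lower. Among other import genes 23 of 23 tested rose, with a median of 1.32. Immp2l, a subunit of the inner membrane peptidase, rose most (2.63, SE 0.19, adjusted p = 8.6e-07), from 9.23 and 10.8 CPM in iWAT and eWAT to 64.5 and 59.2 in iBAT and scBAT. Mipep, a matrix peptidase that trims imported proteins, rose by 2.09, and Hspa9, the HSP70 of the import motor, by 1.90. Tomm20l and Timm8a2 were too low to test.

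Of 17 other cristae genes 16 rose and 1 fell, with a median of 1.55. Chchd10, a small protein of the intermembrane space, stood at 655, 705 and 629 CPM in iBAT, 606, 603 and 652 in scBAT, 48.2, 112 and 54.3 in iWAT and 40.4, 69.9 and 39.9 in eWAT (3.42, SE 0.24, adjusted p = 6.21e-07). The MICOS subunit gene Apoo rose by 2.96 and Crls1, the cardiolipin synthase gene, by 2.52. Pgs1, which acts upstream in cardiolipin synthesis, fell by 0.26 (SE 0.06, adjusted p = 0.00417).

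Of 19 other fusion and fission genes tested, 14 rose and 2 fell, with a median of 0.99. Mtfp1, an inner membrane protein that promotes fission, had 69.6 to 88.1 CPM across the brown libraries and 6.09 to 14.1 across the white ones (3.19, SE 0.19, adjusted p = 2.31e-07). Pld6, an outer membrane lipase that favours fusion, had 12.2, 9.05 and 8.53 CPM in iBAT, 5.59, 4.99 and 4.38 in scBAT, 0.316, 0.660 and 0.362 in iWAT and 0.603, 0.595 and 0.408 in eWAT (3.85, SE 0.22, adjusted p = 1.93e-07). All 3 iBAT libraries were above all 3 scBAT ones for Pld6, but scBAT minus iBAT was not called (-0.99, adjusted p = 0.314). Fam73b, which promotes fusion, rose by 1.65. Its relative Fam73a fell by 0.77 (SE 0.25, adjusted p = 0.016), with 18.2, 6.78 and 22.3 CPM in iWAT 1 to 3, 7.30 to 8.97 in eWAT and 5.39 to 7.64 in brown libraries, so that iWAT 1 and 3 stood apart. Without them the difference of Fam73a was -0.15 (adjusted p = 0.356). Inf2, a formin that acts in fission, fell by 0.50 (SE 0.13, adjusted p = 0.00553), and Gdap1, Mtfr2 and Usp30 were not called.

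All 13 other mitochondrial protease and chaperone genes rose, with a median of 1.34. Afg3l2, an inner membrane protease, and Dnaja3, a cochaperone of the matrix HSP70, each rose by 2.08, and Clpp, a matrix protease, by 1.49. For comparison, 43 of 44 tested complex I genes (symbols starting with Nduf) were higher in brown fat with a median of 2.03. Of 76 mitochondrial ribosomal protein genes 75 were higher, with a median of 1.19. The mitochondrial carrier family (symbols starting with Slc25a) was mixed, with 27 of 42 tested genes higher, 8 lower and 7 not called, and a median of 1.02. Beside all of these counts, 31.3% of all tested genes were higher and 38.1% lower. The difference between these medians and the 1.30 of the 36 genes was not tested.

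**Figure D5:**
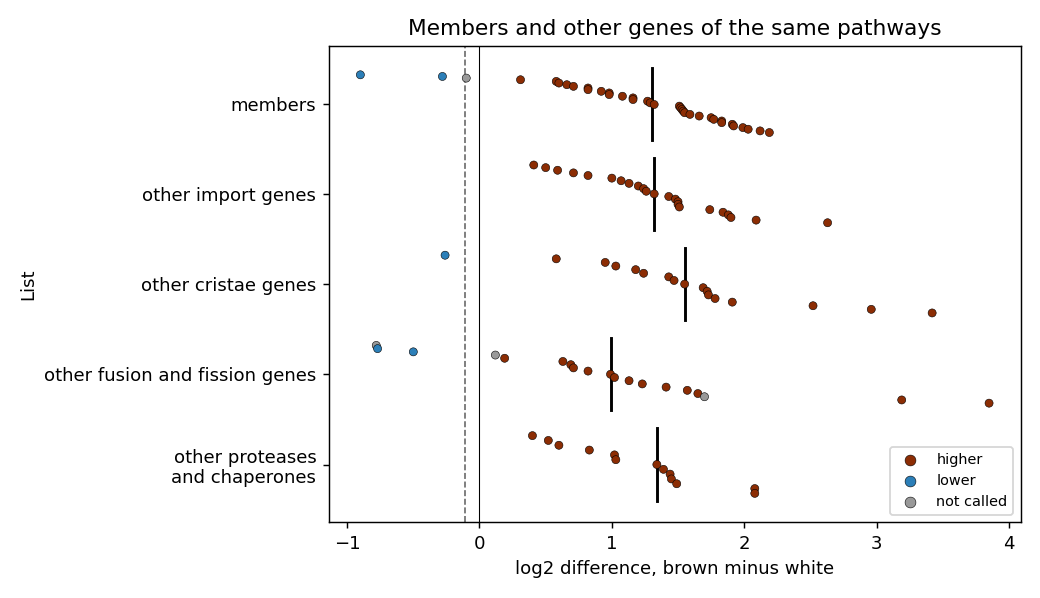
Log2 difference, brown minus white, of each tested gene (points) in the 36 genes and in 4 lists of related genes (rows), with the median of each list as a black bar and that of all tested genes as a dashed line. Medians lie between 0.99 and 1.55, and Pld6 (3.85) and Chchd10 (3.42) lie furthest to the right.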

How the data were processed

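RNA from 4 mouse fat depots was measured in 12 libraries. The deposited table holds raw read counts per gene symbol and library, to which the authors applied no normalization as far as the values show. Per the labels' protocols, total RNA was extracted with a kit for fatty tissue and made into TruSeq RNA libraries. Per the submitters' processing notes, the tools were HTSeq 0.6.1p1, STAR 2.4.2a, Picard 1.119, bcl2fastq 1.8.3 and edgeR, with build mm10, and no role is given for any. Gene annotation and strand setting are not given in the sources used here.

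Genes were kept with filterByExpr (14898 of 23420) and tested in edgeR 4.0.16 (R 4.3.3) by quasi-likelihood, with TMM factors and robust dispersions. All 12 libraries entered 1 fit with a mean per depot (8 residual degrees of freedom), and p-values were adjusted over all tested genes. Ratios used a prior count of 2. Alternatives were other scalings, no filter, DESeq2 1.42.0, limma-voom (limma 3.58.1), a replicate block, leaving out libraries and fits of 2 depots. The tests were checked on simulated data. The simulated counts held few changed genes, as many raised as lowered, unlike the brown to white contrast. That check therefore cannot show how the scaling or the calls hold in these data.

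The 36 genes and the lists were chosen with earlier results of these data known. Of each role the 3 genes with the largest difference, all genes not called or lower, those of the ratios and up to 6 of the white comparison were given in full, and of each related list the 3 largest called differences and all called lower. Positions come from GENCODE M21 (GRCm38). Of the 36 genes, 9 overlap another gene of the table on the opposite strand, and 6 (Tomm20, Timm8a1, Timm17a, Timm23, Yme1l1 and Hspd1) have annotated pseudogenes at least 95% identical over 200 bases, which could share their reads. Listed cell type markers not used above were summed in brown and white libraries. Macrophage markers gave 220 to 442 and 1400 to 1590 CPM, and endothelium 1230 to 1630 and 844 to 1330. Mesothelium gave 7.84 to 45.4 and 3.49 to 578, and epididymis 3.24 to 451 and 0.132 to 36.9. The highest epididymis sums were in scBAT 1 to 3 (177, 451 and 43.3 CPM). Erythroid markers gave 27.8 to 44.8 and 6.75 to 34.7. Of 8 epididymis markers 4 had no counts (Lcn5, Defb2, Spinkl and Cst11), and of 5 erythroid ones 3 (Hba-a2, Hbb-b1 and Hbb-b2).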

Additional observations from a re-analysis of the deposited data

How the results depend on the processing

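Of the 36 genes, 34 kept direction and side of the threshold between brown and white fat in all 20 alternatives. Chchd6 and Fis1 were the exceptions. The counts were 32 or 33 higher and 2 or 3 lower. Of all tested genes, 24.4% (no filter) to 34.4% (without iWAT 2) were called higher, and 31.0% to 42.7% lower. Between iWAT and eWAT the number called lower was 1, where 11.0% of all tested genes were. It became 3 with DESeq2 (16.7% of all genes), 0 with the replicate block (9.29%), 0 without iWAT 1 and 3 (2.68%), 0 without the most muscle-marked library of each brown depot (6.07%) and 0 with only these depots in the fit (1.1%). It ran from 0 to 17 when each library was left out, with 17 without iWAT 2 (32.5%), so the share of all genes moved as well. The number called higher, 0, became 1 without iWAT 1 and 3 (3.12% of all genes) and ran from 0 to 2. For scBAT minus eWAT the number called lower was 2 (3851 of all 14898 tested genes). It became 0 without the muscle-marked libraries (2963 of 15466). Over libraries left out it ran from 1 to 2, while all genes ran from 3048 (without scBAT 3) to 5112 (without iWAT 2). The ratio of Mfn1 to Mfn2 kept its direction but not its call without the muscle-marked libraries (0.37). That of Hspd1 to Hspe1, 0.00, became -0.20 without iWAT 1 and 3 and -0.01 without the muscle-marked libraries, and ran from -0.11 to 0.07 over libraries left out. For these the cause was not tested. No pairing of the libraries by replicate number was detected. Of 18 same-numbered pairs, 5 had correlated deviations over 0.1 (range -0.184 to 0.234). Of 12 libraries, 5 correlated best with their own number. With 3 libraries per depot the deviations from a depot mean depend on each other, so this check cannot exclude pairing. The replicate block gave 33 higher and 2 lower between brown and white fat (31.0% and 36.9% of all tested genes).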
